A study of Mus musculus with 6 samples.

Results

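Steroid hormone receptors carry the estrogen and progesterone signals on which ectopic endometrium depends. The 8 receptor genes described here are Esr1, Esr2, Pgr, Nr3c1, Nr3c2, Gper1, Pgrmc1 and Pgrmc2, taken by name from a table of read counts for 56884 genes. The table holds 6 libraries of messenger RNA from mouse endometriosis lesions, 3 from control donors (WT) and 3 from Dnmt3a knockout donors (KO). Control donors were Dnmt3a f/f females, whose Dnmt3a gene is floxed but intact. KO donors were Dnmt3a f/f:PR-Cre/+ females, in which Cre recombinase is made from the progesterone receptor gene and removes the floxed part of Dnmt3a, a DNA methyltransferase, in cells that express that receptor. The donors were 8 weeks old, and all lesions grew in wild-type recipients given estrogen pellets, so vessels, immune cells and other host cells kept Dnmt3a in both groups. The labels give a time of 4 weeks and tissue fragments injected into the peritoneum, while the methods describe an earlier collection and a fragment sutured to the mesentery. Each library is 1 whole lesion. The methods count as many donors as lesions in each group and give each recipient a single fragment, while the labels tie no lesion to an animal.

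Estrogen receptor alpha (Esr1), estrogen receptor beta (Esr2), the progesterone receptor (Pgr), the glucocorticoid receptor (Nr3c1) and the mineralocorticoid receptor (Nr3c2) are nuclear receptors: bound by their hormone, they attach to DNA through a pair of zinc fingers and regulate transcription. In the uterus, estrogen acting on Esr1 drives epithelial growth and induces Pgr, and progesterone acting on Pgr restrains that growth. In endometriosis a high ESR2 to ESR1 ratio and a weak response to progesterone are widely described. Gper1 is a G protein-coupled receptor of the cell surface that responds to estrogen, and Pgrmc1 and Pgrmc2 are small heme-binding membrane proteins linked to progesterone.

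The nuclear receptors divide by the base of the first zinc finger, where a short stretch called the P box picks the DNA element that is bound. The coding sequence of that finger in both estrogen receptors and Pgr, 81 bases from its first cysteine codon, is printed 5′ to 3′ from the GENCODE M21 transcripts with the 3 P box codons that separate the classes in capitals.
Esr1: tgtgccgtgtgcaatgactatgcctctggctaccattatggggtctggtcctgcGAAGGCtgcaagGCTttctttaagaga
Esr2: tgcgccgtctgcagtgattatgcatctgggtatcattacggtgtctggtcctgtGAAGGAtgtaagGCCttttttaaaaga
Pgr: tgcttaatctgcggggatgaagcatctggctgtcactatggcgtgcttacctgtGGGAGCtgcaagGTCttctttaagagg
Esr1 and Esr2 shared 66 of the 81 bases and 26 of the 27 encoded residues, including all 3 P box residues, so the estrogen receptors differ here mostly at silent positions. Between the classes, Esr1 and Pgr shared 52 bases and 17 residues and 0 of the 3 P box residues.

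CpG dinucleotides are what Dnmt3a methylates, and methylation itself was not measured here. The 250 bases before the RefSeq start of the 3 sex steroid receptors compared as ratios are shown on the coding strand with every CpG in capitals. They come from GRCm38.p6 and lie at chr10:4611739-4611988 for Esr1 (plus strand), chr12:76177260-76177509 for Esr2 (minus strand) and chr9:8899583-8899832 for Pgr (plus strand).
Esr1: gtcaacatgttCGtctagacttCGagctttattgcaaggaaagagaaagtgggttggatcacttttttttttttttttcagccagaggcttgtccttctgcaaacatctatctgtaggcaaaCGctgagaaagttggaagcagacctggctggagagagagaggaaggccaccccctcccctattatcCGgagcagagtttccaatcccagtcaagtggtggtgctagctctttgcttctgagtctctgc
Esr2: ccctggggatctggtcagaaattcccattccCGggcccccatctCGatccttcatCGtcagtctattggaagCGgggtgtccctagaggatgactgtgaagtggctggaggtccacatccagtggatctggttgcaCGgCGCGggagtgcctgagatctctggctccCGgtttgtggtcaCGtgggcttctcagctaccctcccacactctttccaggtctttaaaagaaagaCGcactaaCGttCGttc
Pgr: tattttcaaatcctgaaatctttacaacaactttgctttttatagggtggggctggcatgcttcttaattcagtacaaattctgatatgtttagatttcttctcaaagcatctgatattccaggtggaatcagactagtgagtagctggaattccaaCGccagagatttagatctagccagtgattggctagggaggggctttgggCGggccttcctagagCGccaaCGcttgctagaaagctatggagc
Esr2 held 12 CpG in this window, against 4 each in Esr1 and Pgr, and the median over all 32851 RefSeq starts was 6. A second start listed for Esr1 held 7 CpG. Among the other receptors with an entry, Gper1 held 2, Nr3c2 17, Pgrmc1 18 and Pgrmc2 20, above the upper quartile of 16 for the last 3. None of these windows held the palindromic estrogen response element, GGTCA and TGACC with 3 bases between them, found in 0.0639% of all windows, or the progesterone and glucocorticoid element, GNACA and TGTNC with 3 bases between them, found in 0.387%. A single arm GGTCA, searched on both strands and contained in the full estrogen element, occurred at 2 places in each of the Esr2 and Nr3c2 windows and was present in 35.2% of all windows.

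The libraries held 45370342 to 57239184 counts. Dnmt3a was at 52.7, 43.9 and 51.7 CPM, counts scaled by library size and composition, in WT replicates 1, 2 and 3 and at 30.3, 33.5 and 36.2 CPM across KO replicates 1, 2 and 3, all KO lesions below all WT lesions. Its log2 fold change was -0.57 (SE 0.14, adjusted p = 0.321 under edgeR's quasi-likelihood fit, adjusted by Benjamini-Hochberg over 18177 genes, and 0.0447 from DESeq2). The lesions differed in tissue content. Summed CPM of 12 skeletal muscle markers was 33867 and 35676 in WT replicates 1 and 3 and 5.67 to 16.2 in the other 4 lesions. Summed CPM of 10 neutrophil markers was 10092 in WT replicate 2 and 37.5 to 490 elsewhere, and that of 10 adipocyte markers was highest in KO replicate 3, at 6978. KO replicate 2 stood apart by the oviduct transcript Ovgp1 and by cilia transcripts, which are described with Esr2. The labelled tissue was present throughout: all 12 endometrial epithelium and all 12 endometrial stroma markers were detected, although Foxa2, which marks uterine glands, did not exceed 2.62 CPM in any lesion and was 0 in KO replicate 3. In whole lesions, fewer cells of a type and less RNA per cell cannot be told apart. Where 1 of these lesions carries a result of a receptor, the value without it is also given.

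Of the 8 receptors, 7 passed the filter on low counts and Esr2 did not. None of the 7 had an adjusted p under 0.05 in edgeR's test, in which 1 of 18177 genes did (0.0055%). The number was also 0 of 7 with DESeq2, which called 5.31% of the genes it tested, and with limma voom. At an unadjusted p under 0.05, Esr1 and Pgrmc1 were higher in KO lesions, 2 of 7 against 6.55% of all genes tested, and none was lower, against 8.16%. These 2 were also the tested receptors for which all 3 KO lesions lay above all 3 WT lesions, a pattern of 10.7% of genes (19.4% in either direction). Esr2 showed it too, at its low counts. No tested receptor had all KO lesions below all WT lesions, against 8.74% of genes.

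**Figure D1:**
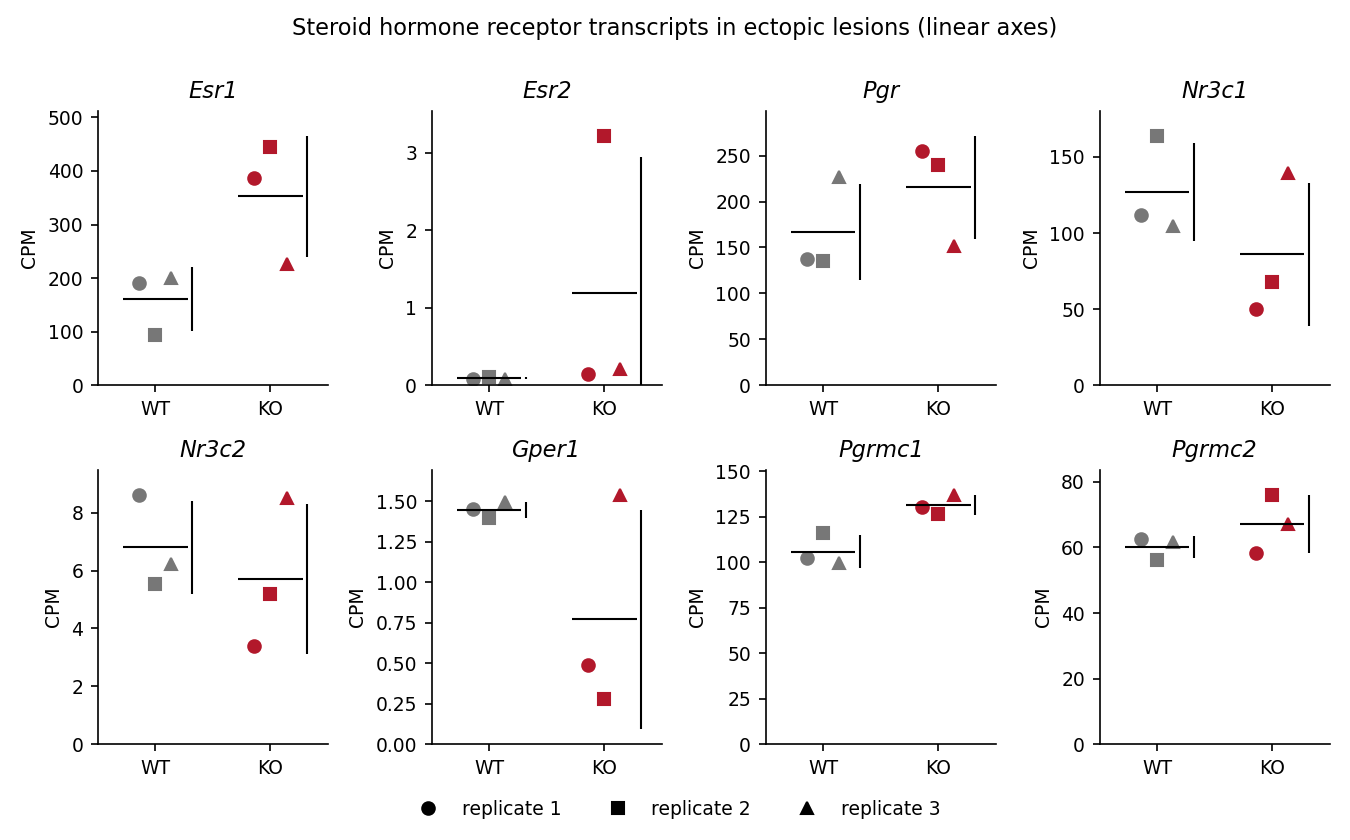
Level of each receptor transcript in CPM on linear axes from 0, 1 panel per gene; each point is 1 lesion, with its replicate number as the symbol, horizontal lines are means and vertical lines SD (n = 3, drawn down to 0 at most). Esr1 and Pgrmc1 show KO points above all WT points, Esr2 has 1 high lesion at 3.22 CPM, and in Nr3c1, Nr3c2 and Gper1 KO replicate 3 lies within or above the WT points while the other 2 KO lesions lie lower.

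Esr1 (ENSMUSG00000019768.17), the main estrogen receptor of the uterus, had 191, 93.2 and 200 CPM across WT replicates 1, 2 and 3 and 387, 445 and 226 CPM across KO replicates 1, 2 and 3. The lowest KO lesion, replicate 3, lay just above the highest WT lesion, and WT replicate 2 had less than either other WT lesion. The means were 161 ± 59.3 CPM across WT and 353 ± 113 CPM across KO lesions (SD, n = 3 each), a fold of 2.18. On the log2 scale the difference was 1.13 with an SE of 0.39 and a 95% interval of 0.18 to 2.07 (adjusted p = 0.328, edgeR). A single exact permutation test of 3 lesions against 3, two-sided, gave p = 0.1, the smallest this design allows. Adjusted p was 0.106 with DESeq2 and 0.0738 with limma voom with quality weights, and 0.0738 to 0.668 over all 14 alternatives. The log2 fold change ran from 0.85 to 1.89, the highest without WT replicates 1 and 3, which leaves 1 WT lesion and assumes that it varies like the KO lesions. Without KO replicate 2 it was 0.93.

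Esr2 (ENSMUSG00000021055.15) was close to undetected in 5 of the 6 lesions. WT replicates 1, 2 and 3 gave 4, 5 and 4 reads, and KO replicates 1, 2 and 3 gave 8, 162 and 10 reads. In CPM these were 0.0854, 0.113 and 0.0854 in WT and 0.140, 3.22 and 0.208 in KO lesions. KO replicate 2 thus held most Esr2 reads of the series, and the other 2 KO lesions lay only a few counts above WT. The 95% Poisson interval, which covers counting error only, was 3.45 to 15.8 counts for KO replicate 1, 4.79 to 18.4 for KO replicate 3 and 1.62 to 11.7 for WT replicate 2, so these intervals overlapped. The exact permutation test gave p = 0.1 with all KO lesions above all WT lesions. With no filter on low counts, edgeR gave a log2 fold change of 3.61 (SE 1.29, adjusted p = 0.425), and without KO replicate 2 it was 0.88 (SE 0.82, adjusted p = 0.722). The gene model of Esr2 also contains the pseudogene Gm7862 on the same strand, and how reads shared between them were assigned is not given in the sources used here.

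KO replicate 2, the lesion with most Esr2 reads, also carried a high level of an oviduct transcript. Ovgp1, the oviductal glycoprotein of secretory cells, was at 4104 CPM in KO replicate 2 and at 2.61 to 50.5 CPM in the other lesions. Pax8, the other oviduct gene listed, did not set that lesion apart, at 72.4 CPM against 71.8 CPM in KO replicate 1. All 12 genes of a list for motile cilia, chosen after this pattern had been seen, had their highest value in KO replicate 2. Their summed CPM was 317 in KO replicate 2 against 3.69 to 19.3 elsewhere. Foxj1, the master regulator of motile ciliogenesis, was at 66.8 CPM in that lesion and at 10.5 and 10.5 CPM across KO replicates 1 and 3, above WT lesions at 2.56, 0.180 and 1.15 CPM. Of 8 ovarian granulosa and theca genes, 7 were highest in KO replicate 2 but at low levels: Inha, an inhibin subunit, was at 22.1 CPM, Amh at 1.47, Cyp19a1, aromatase, at 0.556 and Fshr at 0.238, and Amh, Cyp19a1 and Fshr had 0 counts in each other lesion. Their part in the Esr2 level was not tested.

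**Figure D2:**
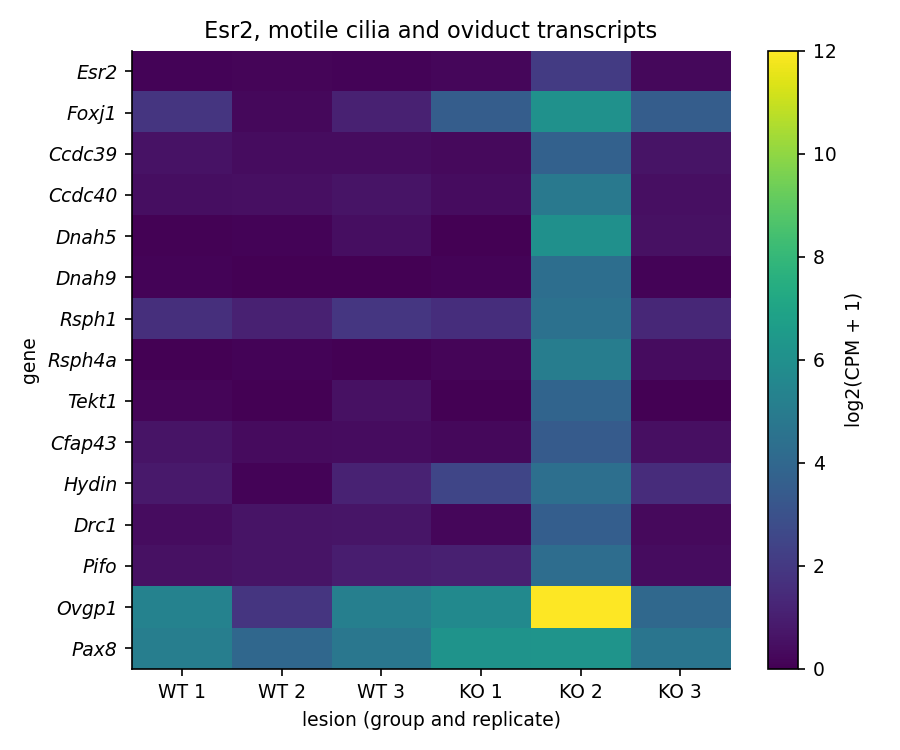
Heat map of log2(CPM + 1) in the 6 lesions (columns, group and replicate) for Esr2, 12 motile cilia genes and the oviduct genes Ovgp1 and Pax8 (rows); brighter is higher. KO replicate 2 is the brightest column, with Ovgp1 at 4104 CPM, while Esr2 itself reaches 3.22 CPM.

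The genes whose log2 CPM followed Esr2 most closely across the 6 lesions, among 15046 genes with a mean of at least 1 CPM, were Ift22, Dlec1, Ift80, Morn1 and Cfap126, with Pearson r from 0.990 to 0.997. All 5 had their highest value in KO replicate 2, for example Cfap126 at 30.4 CPM against 1.71 to 4.13 CPM elsewhere, so these correlations rest on 1 lesion. For Esr1 the 5 nearest were 9430085M18Rik, Fzd6, Nck2, Rpl12 and Mnat1 (r 0.997 to 0.999). Fzd6, a Wnt receptor, was at 92.3, 41.7 and 86.6 CPM across WT and 200, 239 and 107 CPM across KO lesions, close to the folds of Esr1, while Rpl12 followed the same order over only 372 to 409 CPM. For Pgr the nearest were Mgat2, Jrkl, Smu1, Fam3c and Caap1 (r 0.992 to 0.997), of which Fam3c spanned the widest range, 184 to 462 CPM. With 6 points that share depth and tissue content these values describe the lesions only.

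Pgr (ENSMUSG00000031870.17), an estrogen-induced gene and the mediator of progesterone action, had 137, 135 and 227 CPM across WT replicates 1, 2 and 3 and 255, 240 and 151 CPM across KO replicates 1, 2 and 3. The groups overlapped, since WT replicate 3 lay above KO replicate 3. The log2 fold change was 0.37 (SE 0.30, 95% interval -0.36 to 1.1, adjusted p = 0.554, edgeR). The interval holds no difference and a doubling alike. With 1 lesion left out the log2 fold change ran from 0.23, when KO replicate 1 was dropped, to 0.63, when WT replicate 3 was. In the widely used PR-Cre line the recombinase is inserted into Pgr itself, so KO donor cells carry 1 altered Pgr allele. Control donors carried no Cre, so for Pgr and for every other gene compared here the presence of that allele and the loss of Dnmt3a cannot be told apart.

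Levels were compared between receptors only per kilobase of exon. In WT lesions Pgrmc1 was highest at 56.9 ± 4.84 CPM per kb (SD, n = 3), followed by Pgr at 19.5 ± 6.11, Pgrmc2 at 18.6 ± 1.04, Nr3c1 at 16.5 ± 4.20 and Esr1 at 11.8 ± 4.34 CPM per kb. From Pgr to Esr1 each neighbour overlapped the next. Nr3c2 at 1.05, Gper1 at 0.571 and Esr2 at 0.0280 CPM per kb lay lower, with no overlap between neighbours. In KO lesions Esr1 stood second, at 25.8 ± 8.27 CPM per kb after Pgrmc1 at 70.6 ± 2.94, and overlapped Pgr at 25.2 ± 6.56. Pgrmc2 followed at 20.7, Nr3c1 at 11.2, Nr3c2 at 0.881, Esr2 at 0.353 and Gper1 at 0.304 CPM per kb. The mean of Esr2 in KO lesions rests on replicate 2, at 0.955 CPM per kb against 0.0417 and 0.0619 in replicates 1 and 3.

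The Esr1 to Esr2 ratio, per kilobase, was 553, 204 and 576 in WT replicates 1, 2 and 3 and 679, 34.1 and 268 in KO replicates 1, 2 and 3. Esr1 thus exceeded Esr2 in every lesion, and the lowest ratio belonged to KO replicate 2. The log2 ratio was 8.65 ± 0.85 in WT and 7.52 ± 2.21 in KO lesions (SD, n = 3), a difference of -1.13 (exact two-sided permutation test, p = 0.7). Without KO replicate 2 the difference turned to 0.086. In the other 5 lesions the ratio rests on 4 to 10 Esr2 reads each.

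The Esr1 to Pgr ratio was 0.871, 0.431 and 0.551 in WT and 0.948, 1.16 and 0.936 in KO replicates 1, 2 and 3. Every KO lesion lay above every WT lesion, and the KO lesions were closer to each other. The log2 difference was 0.77, a fold of 1.71 (two-sided exact permutation, p = 0.1, the smallest possible, and adjusted p = 0.5 over the 5 ratios tested). It was 0.54 to 1.05 with each lesion left out, and the altered Pgr allele enters this ratio too. The Esr2 to Pgr ratio differed by 1.90 on the log2 scale (exact permutation p = 0.3), by 0.59 without KO replicate 2 and by 2.89 without KO replicate 1. The Nr3c1 to Nr3c2 ratio was 10.9, 24.9 and 14.1 in WT and 12.5, 11 and 13.8 in KO lesions (difference -0.34, exact permutation p = 0.5). That difference was -0.0064 without WT replicate 2, the lesion with the highest ratio, and -0.60 without WT replicate 1. The Pgrmc1 to Pgrmc2 ratio was 2.84, 3.6 and 2.81 in WT and 3.89, 2.90 and 3.56 in KO lesions (difference 0.16, exact permutation p = 0.3), 0.067 to 0.28 with a lesion left out. The groups overlapped in these last 3 ratios.

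**Figure D3:**
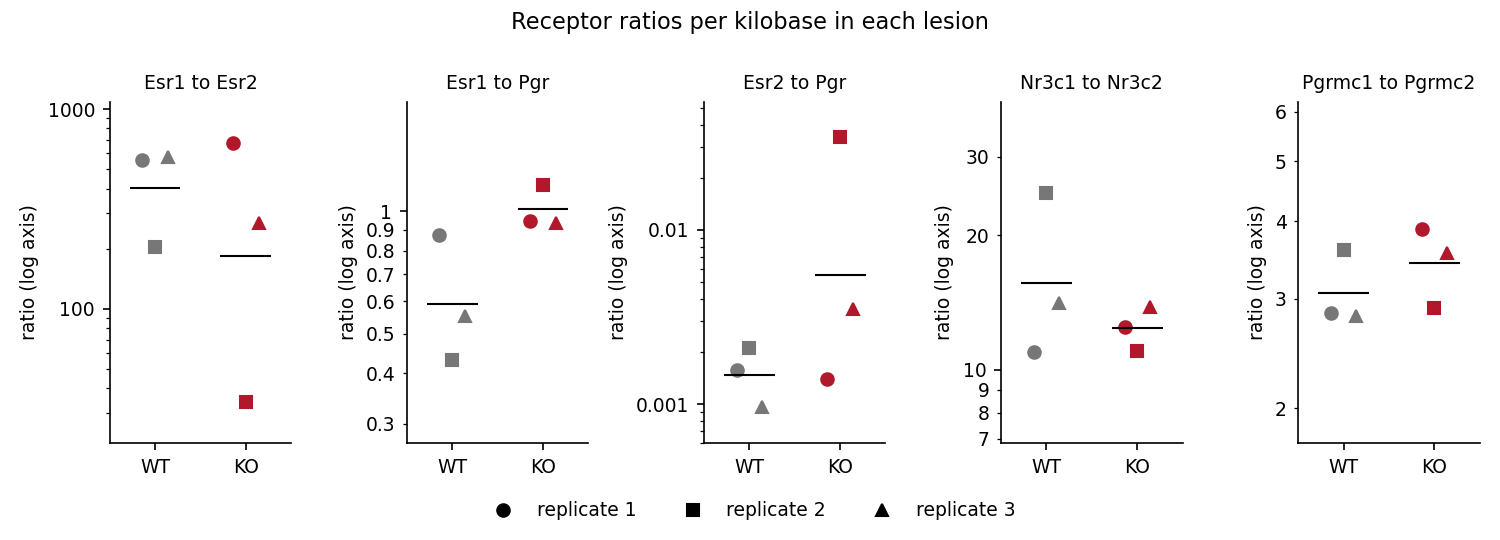
Ratios of receptor levels per kilobase in each lesion on log axes, 1 panel per ratio; points are lesions, symbols give the replicate and lines the mean of the log2 values. The Esr1 to Pgr panel is the one in which the KO points, 0.936 to 1.16, all lie above the WT points, and KO replicate 2 sets both panels with Esr2 apart.

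Esr1 and Pgr are made in both epithelium and stroma of the endometrium, so their levels were set beside markers of each. Summed CPM of 12 epithelial markers was 2744, 2183 and 3998 in WT and 5454, 4668 and 2725 in KO replicates 1, 2 and 3. None of the 12 had an unadjusted p under 0.05, and 11 had a log2 fold change above 0 (median 0.53). Of 12 stroma markers, 9 had a log2 fold change above 0 and 3 below (median 0.72). At an unadjusted p under 0.05, 5 of the 12 were higher, where 6.55% of all genes were. Wnt5a was at 1.42 and Hoxa11 at 1.05 on that scale, against -0.86 for Pdgfra and -0.47 for Vcan. Of 10 smooth muscle markers, 9 were tested, 7 with a log2 fold change above 0 and 2 below (median 0.76). At an unadjusted p under 0.05, 5 were higher, against 6.55% of all genes tested. In each of these 5 all KO lesions lay above all WT lesions, a pattern of 10.7% of genes. They included Myh11 (log2 fold change 0.96, adjusted p = 0.00478 with DESeq2 and 0.321 with edgeR) and Actg2 (1.37, adjusted p = 0.0114 with DESeq2 and 0.321 with edgeR). Des was at -2.17 and Synpo2 at -0.50 on the log2 scale with DESeq2. The summed smooth muscle markers overlapped, at 1168 to 5279 CPM across WT and 2421 to 4177 CPM across KO lesions. The part of smooth muscle in the Esr1 level was not tested. Esr1 equalled 6.97%, 4.27% and 4.99% of the epithelial sum in WT and 7.09%, 9.53% and 8.31% in KO lesions, again with every KO lesion above every WT lesion (log2 difference 0.64, exact permutation p = 0.1). Against the stroma sum Esr1 was at 14.2%, 6.47% and 8.99% in WT and 13.7%, 23.9% and 9.91% in KO lesions, and the groups overlapped (difference 0.66, exact permutation p = 0.3). Pgr equalled 5.01%, 6.19% and 5.67% of the epithelial sum in WT and 4.68%, 5.14% and 5.56% in KO lesions (difference -0.13, exact permutation p = 0.4). Against both sums together, Esr1 was at 4.67%, 2.57% and 3.21% across WT and 4.67%, 6.81% and 4.52% across KO lesions, with overlap (difference 0.63, exact permutation p = 0.3), and Pgr differed by -0.14 (exact permutation p = 0.3). The separation of the groups in Esr1 thus held against the epithelial sum and not against the stroma or combined sums. These comparisons were chosen after the marker sums had been seen.

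**Figure D4:**
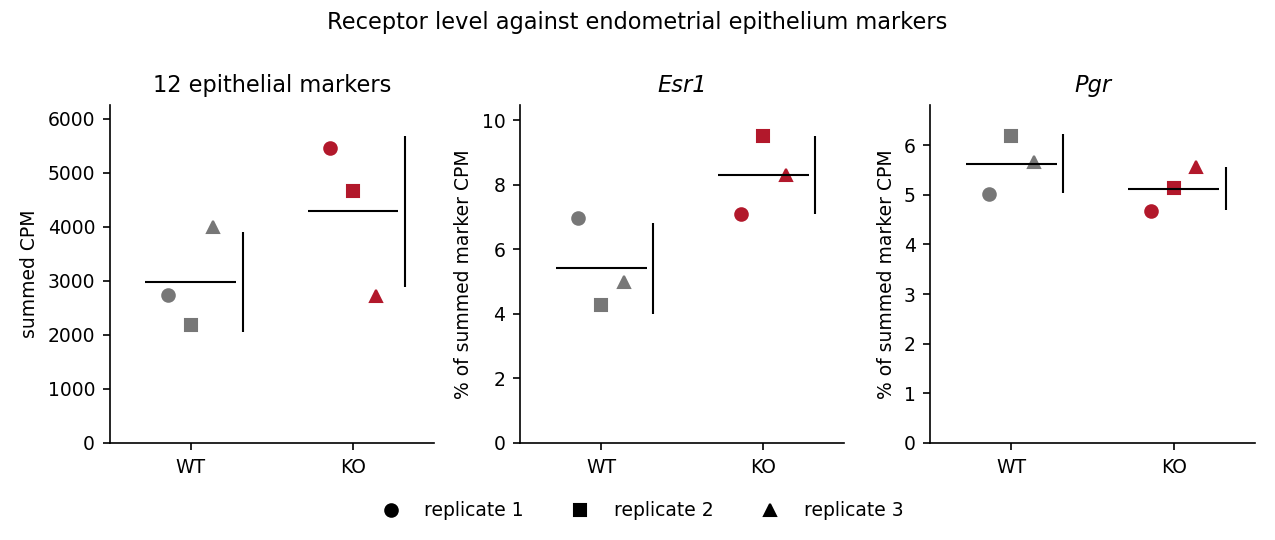
Summed CPM of 12 endometrial epithelium markers (left), and Esr1 (middle) and Pgr (right) as a percentage of that sum, in each lesion; horizontal lines are means and vertical lines SD (n = 3). KO points of Esr1, 7.09% to 9.53%, lie above the WT points, while those of Pgr lie within 4.68% to 5.56% and overlap WT.

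Nr3c1 (ENSMUSG00000024431.16), which binds corticosterone and is made in most cell types, was at 112, 164 and 105 CPM across WT and 50.3, 68.1 and 139 CPM across KO replicates 1, 2 and 3. KO replicates 1 and 2 lay below every WT lesion and KO replicate 3 within their range. The log2 fold change was -0.56 (SE 0.41, adjusted p = 0.517, edgeR), and it was -1.1 without KO replicate 3, -0.29 when KO replicate 1 was dropped and -0.33 when WT replicate 2 was. Nr3c2 (ENSMUSG00000031618.14), which binds aldosterone and corticosterone, was at 8.63, 5.54 and 6.24 CPM across WT and 3.40, 5.20 and 8.5 CPM across KO lesions, with overlap (log2 fold change -0.25, SE 0.38, adjusted p = 0.759, edgeR). Its sign turned without KO replicate 1, to 0.016, and it was -0.66 without KO replicate 3. Gper1 (ENSMUSG00000053647.5) was at 1.45, 1.40 and 1.5 CPM across WT and at 0.491, 0.278 and 1.54 CPM across KO lesions. The WT lesions were nearly equal, and KO replicate 3 matched them while the other 2 KO lesions lay far lower. Its log2 fold change was -0.91 (SE 0.64, adjusted p = 0.502, edgeR) and reached -1.90 without KO replicate 3. Without KO replicate 2 it was -0.51. Within KO lesions, summed adipocyte markers were also highest in replicate 3, at 1098, 1649 and 6978 CPM in replicates 1, 2 and 3, as were macrophage markers, at 798, 582 and 1469 CPM. Endothelial markers had the same high lesion, at 451, 309 and 885 CPM. The part of these cells in the 3 receptors was not tested. Gper1 lies across 3110082I17Rik on the opposite strand, and the strand setting of the counting is not stated, so reads of the neighbour could enter its count. That neighbour was at 5.71 to 7.37 CPM in all lesions.

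Pgrmc1 (ENSMUSG00000006373.11), which also binds cytochrome P450 enzymes, was at 102, 116 and 99.3 CPM across WT and 130, 126 and 137 CPM across KO replicates 1, 2 and 3. All KO lesions lay above all WT lesions, and each group was tight, with a coefficient of variation of 8.49% in WT and 4.16% in KO. The log2 fold change was 0.31, a fold of 1.24 (SE 0.12, 95% interval 0.02 to 0.60, adjusted p = 0.332, edgeR). It was thus the smallest difference among the receptors whose groups did not overlap, and the one with the least spread. Without WT replicates 1 and 3 it was 0.16. Pgrmc2 (ENSMUSG00000049940.8), its paralog, was at 62.6, 56.3 and 61.6 CPM across WT and 58.3, 76.1 and 67.3 CPM across KO lesions, with overlap (log2 fold change 0.16, SE 0.14, adjusted p = 0.574, edgeR), and 0.066 without KO replicate 2 or 0.25 without KO replicate 1.

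Receptors of related families overlapped between the groups. The orphan estrogen-related receptors bind no estrogen and regulate energy metabolism. None of the 3 had an unadjusted p under 0.05. Esrrg, whose log2 fold change of -2.60 turned to 2.43 without WT replicates 1 and 3, was at 14.2, 0.225 and 8.29 CPM across WT and 0.526, 3.10 and 0.125 CPM across KO lesions, highest in the 2 lesions with skeletal muscle transcripts, while Esrra was at 39.9 to 50.2 CPM across WT and 29.1 to 44.0 CPM across KO lesions. Of 7 membrane progestin receptors and relatives of Pgrmc1, none had an unadjusted p under 0.05 (median log2 fold change 0.01). Paqr8 was at 13.6 to 20.7 CPM across WT and 14.4 to 33.8 CPM across KO lesions, and Nenf, neudesin, at 31.8 to 41.2 CPM and 24.1 to 36.2 CPM.

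Unliganded receptors are held by chaperones of the Hsp90 complex. Of 12 such genes 2 were higher at an unadjusted p under 0.05 and none lower (median log2 fold change 0.11, against 0.01 over all genes tested, of which 6.55% were higher). Leaving out KO replicate 1 or 2, or WT replicate 1 or 2, brought the count to 0, and leaving out WT replicate 3 brought it to 1. Fkbp4, the co-chaperone FKBP52 that Pgr needs in the uterus, was at 194, 107 and 218 CPM across WT and 428, 463 and 192 CPM across KO lesions, with overlap through KO replicate 3 (log2 fold change 1.06, SE 0.42, adjusted p = 0.334, edgeR). Hsp90aa1 was at 245, 262 and 313 CPM across WT and 379, 456 and 328 CPM across KO lesions, all KO above WT (log2 fold change 0.50). Fkbp5, which holds the glucocorticoid receptor back and is itself induced by it, was at 25.7, 33.3 and 32.1 CPM across WT and 16.6, 18.2 and 34.1 CPM across KO lesions. Of 10 partner factors of estrogen receptor, 1 was lower at an unadjusted p under 0.05, a share near the 8.16% of all genes, and 0 to 2 were lower with a lesion left out. This was Foxa1, a pioneer factor that opens chromatin for the receptor, at 1.49, 11.4 and 2.01 CPM across WT and 0.175, 0.0397 and 1.13 CPM across KO lesions (log2 fold change -3.48, adjusted p = 0.334 with edgeR and 0.0512 with DESeq2). All KO lesions lay below all WT lesions, at low levels throughout, and the log2 fold change was -1.97 without WT replicate 2 and -5.48 without KO replicate 3. Xbp1 was the highest named partner, at 237 to 314 CPM across WT and 277 to 406 CPM across KO lesions, and Gata3 and Tfap2a stayed under 11 CPM in every lesion.

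Known estrogen-induced genes of the uterus were mostly above 0 in log2 fold change, 11 of 16 with a median of 0.76 against 0.01 over all genes tested. At an unadjusted p under 0.05, 3 were higher and none lower, against 6.55% and 8.16% of all genes. None had an adjusted p under 0.05 in edgeR's test. Aqp5, a water channel of uterine epithelium, was at 84.0, 13.3 and 51.2 CPM across WT and 376, 269 and 111 CPM across KO lesions, all KO above WT (log2 fold change 2.35, SE 0.76, adjusted p = 0.328 with edgeR and 0.0268 with DESeq2, in which 1.51% of genes were called higher). Clca3a2 was at 231, 272 and 309 CPM across WT and 869, 534 and 333 CPM across KO lesions, also without overlap (log2 fold change 1.1, and 0.68 without KO replicate 1). Cyp26a1, which degrades retinoic acid, was at 17 CPM in KO replicate 2 and under 0.3 CPM in the other 5 lesions, so its log2 fold change of 4.93 rests on the lesion with oviduct transcripts and was 0.30 without it. Aqp8 was at 9.99, 0.675 and 1.6 CPM across WT and 27.9, 36.8 and 5.61 CPM across KO lesions. Most of these genes are epithelial, and the epithelial marker sum was also higher on average in KO lesions. Its part was not tested. The count of 3 was 1 when WT replicate 2, WT replicate 3 or KO replicate 1 was left out and 8 without KO replicate 3, where 1 was lower, while the median stayed between 0.44 and 1.12.

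Of 16 progesterone-induced genes, 14 passed the filter, 8 with a log2 fold change above 0 and 6 below (median 0.10). At an unadjusted p under 0.05, 2 were higher and 1 was lower, against 6.55% higher and 8.16% lower over all genes. The 1 lower of 14 is near the share of all genes. Hand2, a stromal factor that restrains epithelial growth, was at 2.05, 2.79 and 2.69 CPM across WT and 5.96, 5.12 and 4.21 CPM across KO lesions. All KO lesions lay above all WT lesions (log2 fold change 1.02, SE 0.26, adjusted p = 0.321 with edgeR and 0.0116 with DESeq2). Ptch1, the hedgehog receptor, was at 31.3, 29.6 and 25.8 CPM across WT and 36.6, 56.3 and 38.3 CPM across KO lesions (log2 fold change 0.60, and 0.38 without KO replicate 2). Bmp2, needed for decidualization, was at 11.1, 8.67 and 7.22 CPM across WT and 5.54, 5.16 and 6.96 CPM across KO lesions, all KO below WT (log2 fold change -0.61, adjusted p = 0.332, edgeR). Zbtb16, which both progesterone and glucocorticoids induce, was at 16.2, 5.38 and 17.8 CPM across WT and 3.26, 5.26 and 8.09 CPM across KO lesions. Hand2 is also one of the stroma markers, and without WT replicates 1 and 3 none of the list had an unadjusted p under 0.05. The counts were 2 higher and 4 lower without KO replicate 3, 3 and 4 with limma voom, and 2 and 0 without WT replicate 1, KO replicate 1 or KO replicate 2.

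Glucocorticoid-induced genes lay lower in KO lesions as a list: 12 of 15 had a log2 fold change below 0, against 8829 of 18177 over all genes, with a median of -0.82, and 5 were lower and none higher at an unadjusted p under 0.05, where 8.16% of all genes were lower. None had an adjusted p under 0.05 in edgeR's test, and 3 did with DESeq2, against 3.8% of all genes called lower. Tsc22d3, known as GILZ and among the most direct targets of the receptor, was at 71.7, 70.1 and 55.9 CPM across WT replicates 1, 2 and 3 and 21.8, 26.3 and 33.9 CPM across KO replicates 1, 2 and 3. The lowest WT lesion lay well above the highest KO lesion (log2 fold change -1.27, SE 0.21, adjusted p = 0.321 with edgeR and 0.000271 with DESeq2). It was -1.45 to -1.13 with each lesion left out. Pdk4, a kinase that spares glucose, was at 250, 36.7 and 362 CPM across WT and 13.2, 16.7 and 53.4 CPM across KO lesions, highest in the 2 lesions with skeletal muscle transcripts (log2 fold change -2.96, adjusted p = 0.328 with edgeR and 0.0146 with DESeq2, and -0.41 without those 2 lesions). Dusp1, a phosphatase of MAP kinases, was at 51.4, 377 and 26.8 CPM across WT and 9.39, 6.46 and 31.2 CPM across KO lesions, highest in the lesion with neutrophil transcripts (log2 fold change -3.28, adjusted p = 0.332 with edgeR and 0.0261 with DESeq2, and -1.32 without that lesion). Nfkbia followed that lesion as well, with 723 CPM there against 121 CPM in each other WT lesion and 78.6 to 89.6 CPM across KO lesions, and its log2 fold change went from -1.96 to -0.55 without it. Cebpd was at 18.6, 28 and 16 CPM across WT and 12.8, 7.99 and 14.6 CPM across KO lesions, all KO below WT. Marker lists of other cell types did not all go the same way. Of 10 adipocyte markers, 8 had a log2 fold change above 0 (median 0.29), and of 10 endothelial markers, 9 had one below 0 (median -0.42). Of 10 T and B cell markers, 9 were lower at an unadjusted p under 0.05, each with all KO lesions below all WT lesions, with summed CPM of 34.7 to 143 across WT and 11.1 to 26.5 across KO lesions (median log2 fold change -2.11). Of 10 macrophage markers, 9 had a log2 fold change below 0 (median -0.93) and none had an unadjusted p under 0.05. The part of muscle, neutrophils, lymphocytes and macrophages in this list was not tested. The count of 5 was 1 without KO replicate 1 or KO replicate 2 and 11 without KO replicate 3, with a median from -1.36 to -0.66 over all alternatives.

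**Figure D5:**
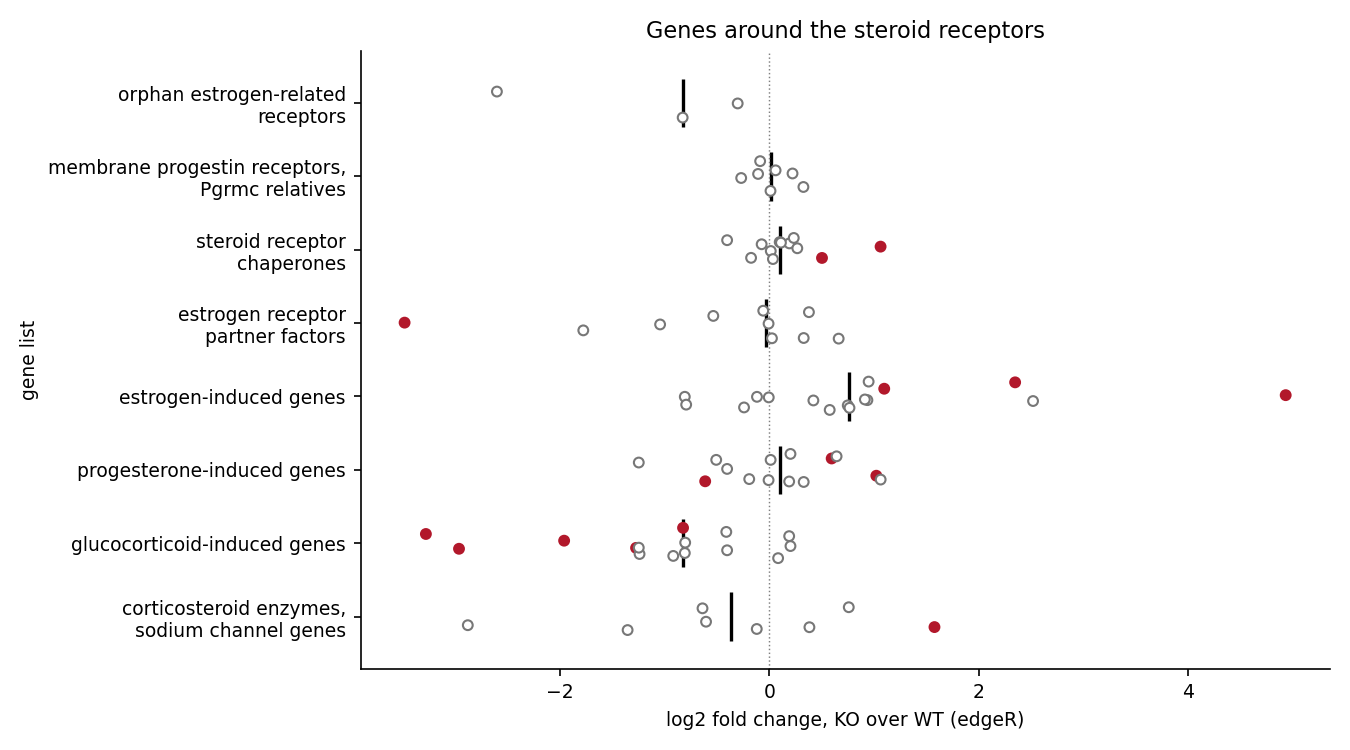
Log2 fold change, KO over WT, from edgeR for each tested gene of the 8 lists around the receptors; filled points had an unadjusted p under 0.05, open points did not, and black bars are list medians. The estrogen-induced list has its median at 0.76 and the glucocorticoid-induced list at -0.82.

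Enzymes that set the local supply of corticosteroid differed in sign. Hsd11b2, which inactivates corticosterone and so shields the mineralocorticoid receptor, was at 38.6, 31.3 and 87.0 CPM across WT and 248, 124 and 96.3 CPM across KO replicates 1, 2 and 3, all KO above WT (log2 fold change 1.58, range 1.08 to 2.13 with a lesion left out, SE 0.53, adjusted p = 0.328 with edgeR and 0.0666 with DESeq2). Hsd11b1, which regenerates corticosterone, was at 14.8, 39.2 and 8.41 CPM across WT and 5.75, 10.2 and 8.46 CPM across KO lesions, with overlap (log2 fold change -1.35, SE 0.59, adjusted p = 0.351, edgeR, and -0.51 without WT replicate 2). Of these enzymes and the sodium transport genes of the mineralocorticoid response, 8 in all, Hsd11b2 alone had an unadjusted p under 0.05. Over all genes tested, 6.55% were higher and 8.16% lower at that threshold. The call of Hsd11b2 was lost when either of WT replicates 1 and 2 or KO replicate 1 was dropped. Hsd11b2 is also one of the stroma markers. Scnn1g, a subunit of the epithelial sodium channel, was at 5 CPM in WT replicate 2 and under 1 CPM in the other lesions. No adjusted p of this list was under 0.05.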

How the data were processed

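Total RNA of whole lesions was made into stranded messenger RNA libraries, 3 per group. The authors deposited raw read counts per gene as whole numbers. Their processing notes name Trimmomatic, featureCounts, DESeq2 and GRCm39, whereas the methods name the Galaxy platform and GRCm38, and aligner and strand setting are not given in the sources used here. Of 56884 gene identifiers, 51948 were found in GENCODE M21 and 35 with the same version. M21 gave symbols and exon lengths, its gene coordinates are not printed, and levels per kilobase are approximate.

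Counts were filtered with filterByExpr (18177 genes kept), scaled by TMM and tested, KO against WT, with edgeR 4.0.16 in R 4.3.3 and Benjamini-Hochberg adjustment. DESeq2 1.42.0, limma 3.58.1, other scalings and filters, and each lesion left out were alternatives. Ratios were tested by exact permutation over lesions, whose smallest p is 0.1. The steps were tested on simulated counts. Counts carry no molecular identifiers. The receptors and gene lists were chosen with earlier results of these data known. Named genes are the receptors, up to 4 genes per list of smallest p, 5 genes per sex steroid receptor with the highest correlation, the targeted gene, and up to 3 genes per marker list. The cilia, oviduct and ovary genes, Nfkbia, Fkbp5, Foxa2 and the stroma and smooth muscle markers were named after their values were seen. Some items of the lists are not reported here.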

Additional observations from a re-analysis of the deposited data

How the results depend on the processing

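None of the 7 receptors that passed the filter had an adjusted p under 0.05 in any of the 14 alternatives, 13 planned and 1, without WT replicates 1 and 3, added after seeing the data. Esr2 could be fitted in 6 of them and in 1 further added one, without a filter and without KO replicate 2, with no adjusted p under 0.05 either. Genes with an adjusted p under 0.05 numbered 1 in edgeR's test, 0 with DESeq2 size factors, with upper quartile scaling and without WT replicates 1 and 3, 1077 with DESeq2 and 12 with limma voom, and 0 to 398 with 1 lesion left out (398 without WT replicate 2). Genes higher at an unadjusted p under 0.05 went from 1190 to 1945 with upper quartile scaling, where the median over all genes shifted from 0.01 to 0.11, to 2596 with limma voom and to 499 to 2185 with a lesion left out. Genes lower went from 1484 to 2307 with DESeq2, 2882 with limma voom and 703 to 2366 with a lesion left out. Receptors with an unadjusted p under 0.05, 2 in edgeR's test, were 1 with DESeq2, 4 with limma voom, 1 without WT replicates 1 and 3, and 0 to 3 with a lesion left out. The sign of Nr3c2 turned without KO replicate 1 (0.016, range -0.66 to 0.016 with a lesion left out) and without WT replicates 1 and 3 (0.030), and that of the Esr1 to Esr2 ratio without KO replicate 2 (range -2.07 to 0.086). The cause of the other moves was not tested. With 0.5 added to each count, all 5 ratios kept their sign.

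Lesions of both groups carry the same replicate numbers, and the labels do not say whether these numbers pair them. Deviations of same-numbered lesions from their group means correlated at 0.03, -0.15 and -0.20, and those of differently numbered lesions at -0.15 to 0.23. With 3 lesions per group that differ in tissue content, these values cannot decide whether lesions were paired. With a replicate block the adjusted calls were 0, genes higher 613 and lower 787 at an unadjusted p under 0.05, receptors 0, and the Esr1 log2 fold change 1.14. The Esr2 values of 5 lesions rest on 4 to 10 counts each, and their counting intervals overlap.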
